A study of Mus musculus with 30 samples.

Results

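The genes described here encode subunits of the oxidative phosphorylation system, with the complex I assembly factors whose symbols begin with Ndufaf. They were chosen by symbol alone (the Nduf, Sdh, Uqcr, Cox4 to Cox8 and Atp5 families) among the nuclear protein-coding genes of the RefSeq annotation of mm10, which gave 96 of 21887 genes. For each gene, the listed regions that overlapped its span extended by 2 kb on either side were collected from 10 lists of genotype-specific regions. The lists come from CUT&Tag, in which an antibody guides a transposase to the DNA beside the protein it binds, on microglia sorted from the brains of C57BL/6J mice labelled as 8 weeks old. All mice carried Tmem119-CreERT2, a Cre recombinase active in Tmem119-expressing cells after tamoxifen, and the series text describes tamoxifen on 7 consecutive days at 7 to 8 weeks of age. The control group (cWT) was Mir137+/+;Tmem119-CreERT2 and the knockout group (cKO) was Mir137loxP/loxP;Tmem119-CreERT2, so both genotypes carried the Cre transgene. Each genotype was profiled with 5 antibodies. H3K27ac is a histone mark of active enhancers and promoters, H3K4me3 marks promoters, and Pu.1 is a transcription factor of myeloid cells. RNA polymerase II was profiled as such (Pol II) and in the form with phosphate on serine 5 of its tail (Pol II Ser5P, Ser5P below), which is typical of early transcription.

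Oxidative phosphorylation takes place at the inner mitochondrial membrane. Complexes I, III and IV pass electrons from NADH to oxygen and pump protons, complex II feeds in electrons from succinate, and complex V (ATP synthase) uses the proton gradient to make ATP. Most subunits are encoded in the nucleus and a few core subunits in mitochondrial DNA, so the complexes draw on both genomes. In microglia the balance between oxidative phosphorylation and glycolysis is known to differ between resting and inflammatory states.

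The 10 lists held 22399 regions, from 44 to 6995 a list, and came from 30 samples in 10 groups of 3 replicates. Each list is 1 antibody in 1 genotype with no value per replicate, so no difference here could be set against the spread between replicates, no test was made, and read depth is unknown. The series text names 4 mice beside 3 replicates, so a replicate may or may not be a mouse of its own. A smaller share of some cell type and a lower signal per cell cannot be told apart in such lists. The 10 microglial marker genes examined all had a listed region, against 0 of 8 neuronal and 0 of 7 other blood cell markers, 1 of 6 astrocyte markers (Slc1a2), 1 of 7 oligodendrocyte markers (Mbp) and 3 of 5 endothelial markers (Pecam1, Flt1 and Kdr). Of all nuclear protein-coding genes, 40.2% had one. The lists hold genotype-specific regions only, so these counts do not measure which cells were present. No listed region lay within 2 kb of Mir137, so the lists do not check the deletion. The antibody protocol gives the same catalogue number for H3K27ac, Pol II and Ser5P, and another for H3K4me3 and Pu.1.

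At least 1 listed region lay at 72 of the 96 oxidative phosphorylation genes (75%), against 40.2% of all nuclear protein-coding genes. The genes were shorter than average, with a median span of 7228 bp against 17169 bp. The Ser5P regions of the cKO list reached the most of them, at 41 genes (42.7%), beside 21.1% of all genes. Pol II regions of the cKO list lay at 25 (26%), beside 16.4%, and H3K27ac regions of the cWT list at 22 (22.9%), beside 18.3%. H3K4me3 regions lay at 9 genes in each genotype (9.38%), beside 6.16% of all genes for the cKO list and 3.89% for the cWT list. The remaining lists touched few genes: Pol II of the cWT list lay at 3 genes (3.12%, beside 1.45%), H3K27ac of the cKO list at 3 (3.12%, beside 2.99%) and Pu.1 of the cKO list at 2 (2.08%, beside 3.24%). No gene of the set had a region in the cWT lists of Pu.1, which touched 0.0959% of all genes, or of Ser5P, which touched 0.521%. The shares for H3K27ac of the cKO list and for Pu.1 were thus near or below those of all genes, and the shares for the cKO polymerase lists and the cWT H3K4me3 list were the ones that stood farthest above in percentage points.

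**Figure D1:**
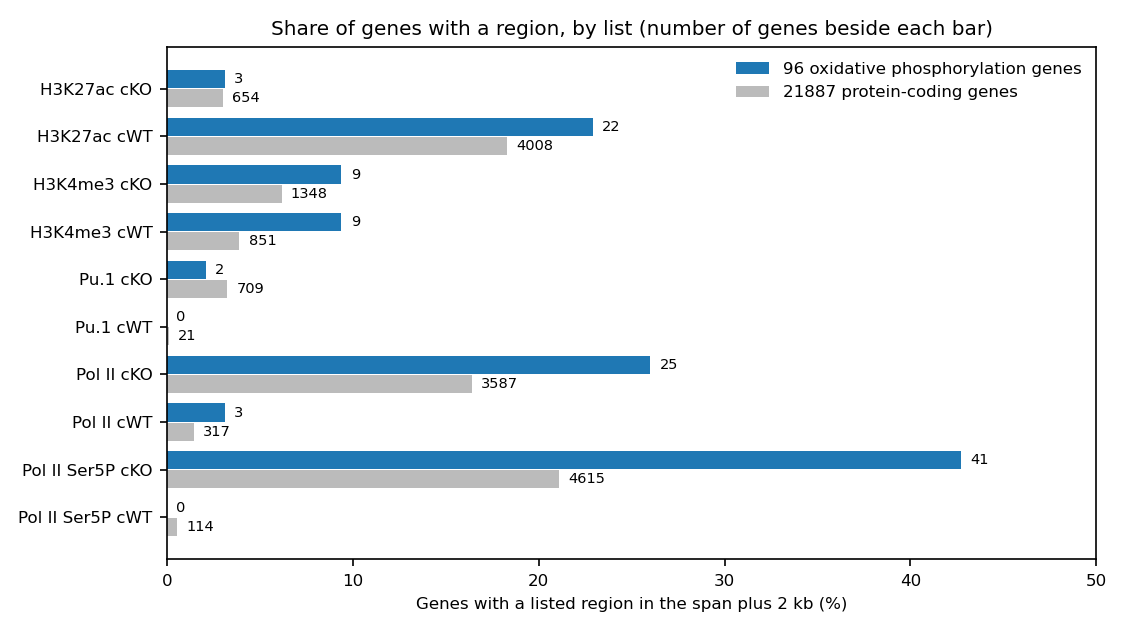
Percentage of genes with a listed region in the gene span plus 2 kb (x axis) for each of the 10 lists (y axis), with oxidative phosphorylation genes in blue, all nuclear protein-coding genes in grey, and the number of genes beside each bar. The bars for Ser5P of the cKO list are 42.7% and 21.1%.

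Many regions could not be assigned to 1 gene. Of the 135 regions, 69 (51.1%) also lay in the 2 kb window of another protein-coding gene, beside 25.5% of regions at all genes. With such regions left out, 39 genes still had a region of at least 1 list and 18 had Ser5P of the cKO list. These are 40.6% and 18.8% of the set, beside 29.7% and 14.9% of all genes, so the distance to all genes was smaller than with shared regions. Among genes described below, every listed region of Ndufa3, Ndufa4, Ndufa5, Ndufa7, Ndufa8, Ndufa11, Ndufb11, Ndufs1, Ndufs3, Ndufs6 and Ndufs8 was shared in this way. The same held for Ndufv3, Ndufaf3, Ndufaf5, Ndufaf8, Sdhd, Uqcr10, Uqcrq, Cox4i1, Atp5a1, Atp5c1, Atp5h, Atp5md and Atp5pb. Regions for which a neighbour is named below were shared too.

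The direction of the lists differed by antibody, as it did for the genome at large. For Ser5P, all 41 genes had regions in the cKO list only, as did 98.8% of all genes with Ser5P regions of 1 genotype. For Pol II, 23 genes had regions in the cKO list only, 1 (Ndufa8) in the cWT list only and 2 (Ndufa10 and Ndufs1) in both. Among all genes with Pol II regions of 1 genotype, 94.7% had them in the cKO list. For H3K27ac the genes pointed the other way, with 22 in the cWT list only and 3 (Cox6b1, Ndufa13 and Ndufv2) in the cKO list only. Of all genes with H3K27ac regions of 1 genotype, 8.07% had them in the cKO list. H3K4me3 was even, with 8 genes in each list alone and Ndufaf3 in both, while 62.8% of all genes with H3K4me3 regions of 1 genotype had them in the cKO list. The directions for polymerase and H3K27ac therefore followed those of the whole lists.

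Several genes had regions of different antibodies over 1 start site, and the DNA just upstream of 6 such starts is shown because the listed regions covered it partly or fully. These members were picked for printing after the values were seen. Each sequence is the 250 bases before the RefSeq start (GRCm38.p6), read 5′ to 3′ on the strand of the gene, and capitals mark matches on either strand to GGGCGG (the core of the GC box), to GGGGCGGGG (a longer Sp1 site that contains that core) or to GCATGCGC (the site of the transcription factor NRF1). Ndufa12 lies at chr10:94198785-94199034 (+ strand), Atp5b at chr10:128083057-128083306 (+), Ndufv2 at chr17:66101560-66101809 (- strand), Ndufv1 at chr19:4012756-4013005 (-), Ndufa6 at chr15:82354292-82354541 (-) and Atp5g2 at chr15:102671048-102671297 (-).
Ndufa12: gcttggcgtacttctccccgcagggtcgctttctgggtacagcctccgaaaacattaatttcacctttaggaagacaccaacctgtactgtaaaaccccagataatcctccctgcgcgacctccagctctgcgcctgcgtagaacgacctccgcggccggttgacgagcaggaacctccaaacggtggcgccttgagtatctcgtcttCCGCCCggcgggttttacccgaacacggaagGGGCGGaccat
Atp5b: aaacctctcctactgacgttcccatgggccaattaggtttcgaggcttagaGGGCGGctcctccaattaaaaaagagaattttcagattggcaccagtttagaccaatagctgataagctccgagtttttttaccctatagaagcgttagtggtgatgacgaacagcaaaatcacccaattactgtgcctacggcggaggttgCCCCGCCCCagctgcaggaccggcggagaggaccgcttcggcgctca
Ndufv2: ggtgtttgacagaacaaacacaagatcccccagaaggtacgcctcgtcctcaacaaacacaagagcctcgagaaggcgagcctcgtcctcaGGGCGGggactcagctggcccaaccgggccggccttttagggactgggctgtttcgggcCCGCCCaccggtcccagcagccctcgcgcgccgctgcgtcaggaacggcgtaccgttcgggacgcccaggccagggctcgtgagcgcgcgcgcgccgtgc
Ndufv1: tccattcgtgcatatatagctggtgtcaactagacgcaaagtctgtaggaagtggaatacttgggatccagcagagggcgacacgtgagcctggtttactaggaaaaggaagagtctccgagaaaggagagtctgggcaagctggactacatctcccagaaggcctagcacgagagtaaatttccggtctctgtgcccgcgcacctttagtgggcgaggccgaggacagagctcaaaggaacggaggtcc
Ndufa6: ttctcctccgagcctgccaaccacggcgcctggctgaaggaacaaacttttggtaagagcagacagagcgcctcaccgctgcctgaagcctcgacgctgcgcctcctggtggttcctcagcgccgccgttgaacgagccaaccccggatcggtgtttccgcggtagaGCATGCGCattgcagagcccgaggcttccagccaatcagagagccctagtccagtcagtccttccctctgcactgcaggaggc
Atp5g2: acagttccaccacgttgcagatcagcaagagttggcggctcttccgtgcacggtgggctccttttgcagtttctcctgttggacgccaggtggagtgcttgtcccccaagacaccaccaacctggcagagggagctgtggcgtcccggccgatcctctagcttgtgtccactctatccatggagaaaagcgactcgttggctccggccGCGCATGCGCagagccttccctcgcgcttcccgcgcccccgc
The Ndufa12, Atp5b and Ndufv2 stretches hold GC box cores, the Ndufa6 and Atp5g2 stretches hold the NRF1 letters, and the Ndufv1 stretch has no capitals because none of these letters occurs in it.

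At the Ndufa12 start, which belongs to an accessory subunit of the peripheral arm of complex I, 3 cKO lists had nearly the same interval. The Ser5P region ran from 11 bp upstream to 301 bp downstream of the start (chr10:94199024-94199336). The Pol II region ran from 10 bp upstream to 276 bp downstream, and the H3K4me3 region from 25 to 275 bp downstream. All 3 also lay in the window of Nr2c1. At the start of Atp5b, the catalytic beta subunit of ATP synthase, a Ser5P region (chr10:128083012-128083522) covered the whole printed stretch and an H3K4me3 region (chr10:128083067-128083760) nearly all of it, both of cKO lists. The start of Ndufv2, which carries an iron-sulfur cluster in the NADH-oxidising module, had an H3K4me3 region of the cWT list (chr17:66101143-66101674) and a Ser5P region of the cKO list (chr17:66101255-66101973) over the same bases. Ndufv1, the subunit that binds NADH and flavin, differed from these: its start had H3K27ac (chr19:4012467-4012802 and chr19:4012803-4013125) and H3K4me3 (chr19:4012479-4012729) of cWT lists and no polymerase region. Ndufa6, an accessory subunit, and Atp5g2, which encodes a c-ring subunit of ATP synthase, had Pol II and Ser5P regions of the cKO lists over the start. At Atp5g2 these regions, chr15:102670764-102671291 and chr15:102670756-102671242, shared all but their edges. Atp5g1, which encodes the same mature c subunit as Atp5g2, had instead an H3K27ac region of the cWT list (chr11:96075281-96075972) overlapped by a Ser5P region of the cKO list (chr11:96075375-96076015).

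**Figure D2:**
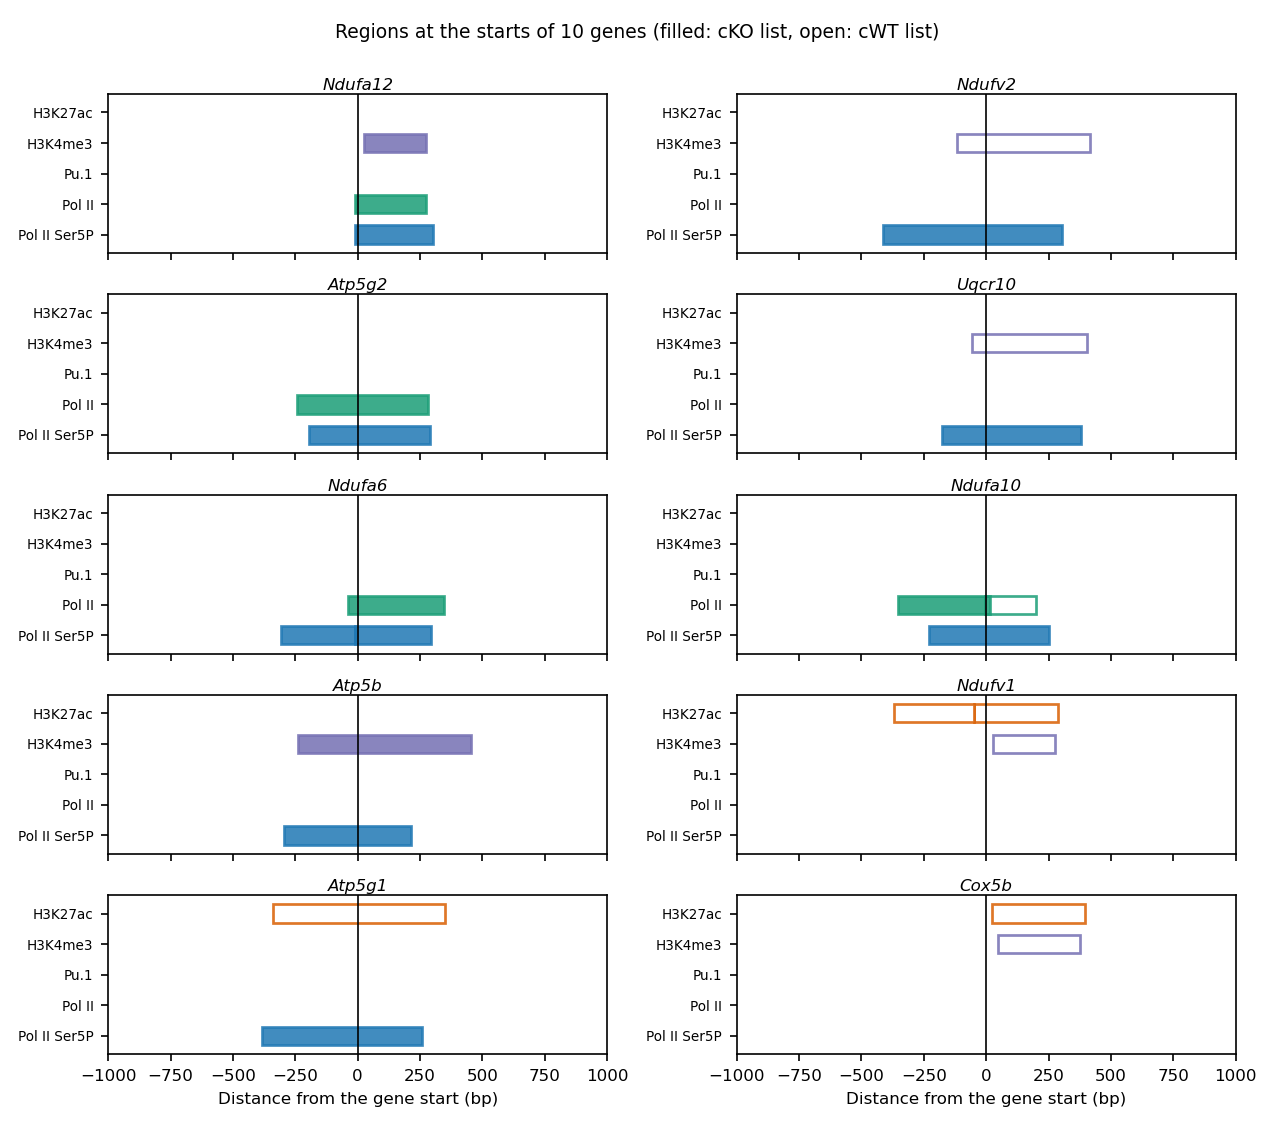
Listed regions by distance from the gene start in bp (x axis) and antibody (y axis) at 10 genes, filled for cKO lists and open for cWT lists. Ndufa12 shows 3 filled regions that begin within 25 bp of its start, and Ndufv1 and Cox5b show open regions only.

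Complex I oxidises NADH and had 31 of its 39 subunit genes in the lists, 17 of them with regions of at least 2 antibodies. The share of all genes with regions of at least 2 antibodies was not counted, so such counts, also for complex V below, are descriptive only. Beside the counts for each complex, here and below, 40.2% of all genes had a region of any list. For Ser5P of the cKO list it was 21.1%, for Pol II of the cKO list 16.4% and for H3K27ac of the cWT list 18.3%. Ser5P of the cKO list reached 18, Pol II of the cKO list 13 and H3K27ac of the cWT list 9, with 5 each for the H3K4me3 lists. Among the core subunits that carry the redox centres, Ndufs8 had Ser5P regions of the cKO list at its start (chr19:3912578-3913107) and 4620 bp downstream, beyond the 3′ end of the gene and in the window of Tcirg1. The latter was overlapped by Pol II of the cKO list. Ndufs7 had a Pol II region of the cKO list that ended 18 bp upstream of its start. Ndufs3, Ndufs6 and Ndufc2 had H3K27ac regions of the cWT list at most 194 bp from their starts and no other listed region. Ndufv2, with 4 antibodies the most of any gene in the set, also had Pol II (chr17:66076763-66077324) and H3K27ac (chr17:66077177-66077576) regions of cKO lists, but these lay beyond its 3′ end, at least 23983 bp from its start and in the window of Ankrd12.

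Among accessory subunits of complex I, some had polymerase regions of the cKO lists and others histone mark regions of the cWT lists. Ndufab1, the mitochondrial acyl carrier protein, had a Pol II and a Ser5P region of the cKO lists at its start (chr7:122101572-122102072 and chr7:122101553-122101850) and again 14036 and 14197 bp inside the gene. Ndufa6, Ndufa10, Ndufa12, Ndufb9 and Ndufa2 likewise had overlapping regions of these lists, although the regions at Ndufa12 (with Nr2c1), Ndufb9 and Ndufa2 also lay in the windows of neighbouring genes. Ndufa3 and Ndufb11, both in the membrane arm, had overlapping H3K27ac and H3K4me3 regions of the cWT lists. At Ndufb11 a Ser5P region of the cKO list (chrX:20617252-20617634) lay over the start, while the nearest base of the cWT H3K4me3 region (chrX:20617782-20618324) was 163 bp upstream of it. Ndufa9 had H3K4me3 of the cKO list 238 bp inside its start and H3K27ac of the cWT list 12132 bp and more inside. Ndufb5 had overlapping Ser5P (chr3:32736523-32736830) and Pu.1 (chr3:32736695-32736980) regions of the cKO lists upstream of its start, in the window of Mrpl47. Ndufa7, Ndufa11, Ndufb2 and Ndufv3 had Ser5P of the cKO list alone. Ndufb10 had H3K27ac regions of the cWT list at its start and beyond its 3′ end, Ndufc1 H3K4me3 of the cWT list, and Ndufa5 and Ndufs5 H3K4me3 of the cKO list over their starts.

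Ndufa13, also known as GRIM-19, and Ndufb6 had the complex I regions that ranked highest in their lists by the deposited p-value, which is the authors' own value per region and for which the sources used here name no null hypothesis. At Ndufa13, an H3K27ac region of the cKO list (chr8:69902702-69903252, deposited p 0.0465) was number 15 of 847. A Pol II region of the cKO list over the same place (chr8:69902692-69903309) was number 89 of 4647. Both lay at least 672 bp upstream of the Ndufa13 start and within the window of the neighbouring Tssk6. At Ndufb6, a Ser5P region of the cKO list (chr4:40269544-40269906, deposited p 0.0386) was number 56 of 6163, but lay beyond the 3′ end of the gene in the windows of Smim27 and Topors. The Ser5P region over the Ndufb6 start (chr4:40279195-40279517) was number 5535. The high ranks at these genes therefore belonged to regions that a neighbouring gene shares.

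Of the 8 assembly factors named Ndufaf, which help to build complex I and are not part of it, 6 had a region, and none had Ser5P. The cKO list of Ser5P reached 21.1% of all genes, so few would be looked for among 8. It reached 14 of 40 genes (35%) in the other list of assembly factors given below. Ndufaf2, Ndufaf5 and Ndufaf7 had H3K27ac of the cWT list, Ndufaf4 had H3K4me3 of the cKO list and Ndufaf8 had Pol II of the cKO list. Ndufaf3 had H3K4me3 regions of both genotypes side by side, chr9:108566759-108567047 in the cWT list and chr9:108567053-108567419 in the cKO list, with 5 bp between them.

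All 4 complex II genes, which encode succinate dehydrogenase, had listed regions. Sdhb, the iron-sulfur subunit, had a Pol II region of the cKO list over its start (chr4:140961096-140961387) and, 1 base farther on, an H3K4me3 region of the cWT list (chr4:140961389-140961867). An H3K27ac region of the cWT list lay 3303 bp inside the gene. Sdhc, a membrane anchor, had Pol II and Ser5P regions of the cKO lists near both ends of its span, and the Pol II region at chr1:171129356-171129912 was number 77 of 4647 in its list. Sdhd, the other anchor, had a Ser5P region of the cKO list over its start, and Sdha, the flavoprotein, an H3K27ac region of the cWT list 4832 bp inside.

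All 8 complex III genes of the Uqcr family also had regions. Ser5P of the cKO list reached 5: Uqcrfs1 (the Rieske iron-sulfur protein), Uqcrc1 (a core protein), Uqcrb, Uqcr10 and Uqcrh. The Uqcrb region (chr13:66904972-66905341) was number 108 of 6163, and it also lay in the windows of Gm10767 and Mterf3. Uqcrc1 had Pol II over the same interval, 46 to 385 bp downstream of the start for Ser5P and 48 to 299 bp for Pol II. Uqcrc2, the other core protein, had Pol II of the cKO list only. At Uqcr10 the H3K4me3 region of the cWT list and the Ser5P region of the cKO list covered the start together. Uqcrh, the hinge protein, had an H3K27ac region of the cWT list 1813 bp outside its span that was number 97 of 6995, in the window of Lrrc41. Uqcr11 had H3K27ac of the cWT list and Uqcrq H3K4me3 of the cKO list.

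Complex IV, cytochrome c oxidase, had regions at 7 of 11 subunits of wide expression and at 2 of 7 isoforms of particular tissues. Cox7c, a small membrane subunit, had the Ser5P region of the cKO list with the lowest deposited p-value in the set (chr13:86046474-86046801, p 0.0309), number 42 of 6163. It ran from 6 bp upstream to 321 bp downstream of the Cox7c start, and no other gene window contained it. Cox8a had Pol II and Ser5P of the cKO lists over its start, and Cox4i1 and Cox7a2l had Ser5P of the cKO list. Cox5b, a zinc-binding subunit, resembled Ndufv1, with H3K27ac (chr1:36691510-36691885) and H3K4me3 (chr1:36691534-36691864) of the cWT lists in the same interval and no polymerase. Cox6a1 had H3K27ac of the cWT list and Cox6b1 H3K27ac of the cKO list. The isoforms with a region were Cox4i2, known from lung, and Cox7a1, known from heart and muscle, and their Ser5P regions lay in the windows of Bcl2l1 and Capns1. The heart and muscle forms Cox6a2 and Cox8b and the testis forms Cox6b2, Cox7b2 and Cox8c had none. Ndufa4, named for complex I but found in complex IV, had Ser5P of the cKO list over its start, and its relative Ndufa4l2 had no region.

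Complex V had regions at 13 of 17 genes, 6 of them with at least 2 antibodies, and 9 had Ser5P of the cKO list. Of the catalytic head, Atp5a1 (alpha) had Ser5P, Atp5b (beta) Ser5P and H3K4me3, and Atp5c1 (gamma) Pol II and Ser5P, all of cKO lists. Atp5d and Atp5e, the delta and epsilon subunits, had none. Each of the 3 genes for the c ring, Atp5g1, Atp5g2 and Atp5g3, had Ser5P of the cKO list at its start or no more than 105 bp downstream. The Atp5g2 regions ranked high in both polymerase lists, number 115 of 6163 for Ser5P and number 43 of 4647 for Pol II. Of the stalk, Atp5pb had Ser5P of the cKO list, while Atp5o (chr16:91931252-91931714) and Atp5h (chr11:115420169-115420653) had H3K27ac of the cWT list and no polymerase. The small membrane subunits Atp5j2 and Atp5mpl had both polymerase lists of the cKO, and Atp5l and Atp5md had Pol II alone. Atp5b also had an H3K27ac region of the cWT list, at 1632 bp the widest of the set, beyond its 3′ end in the window of Baz2a (chr10:128091240-128092871).

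**Figure D3:**
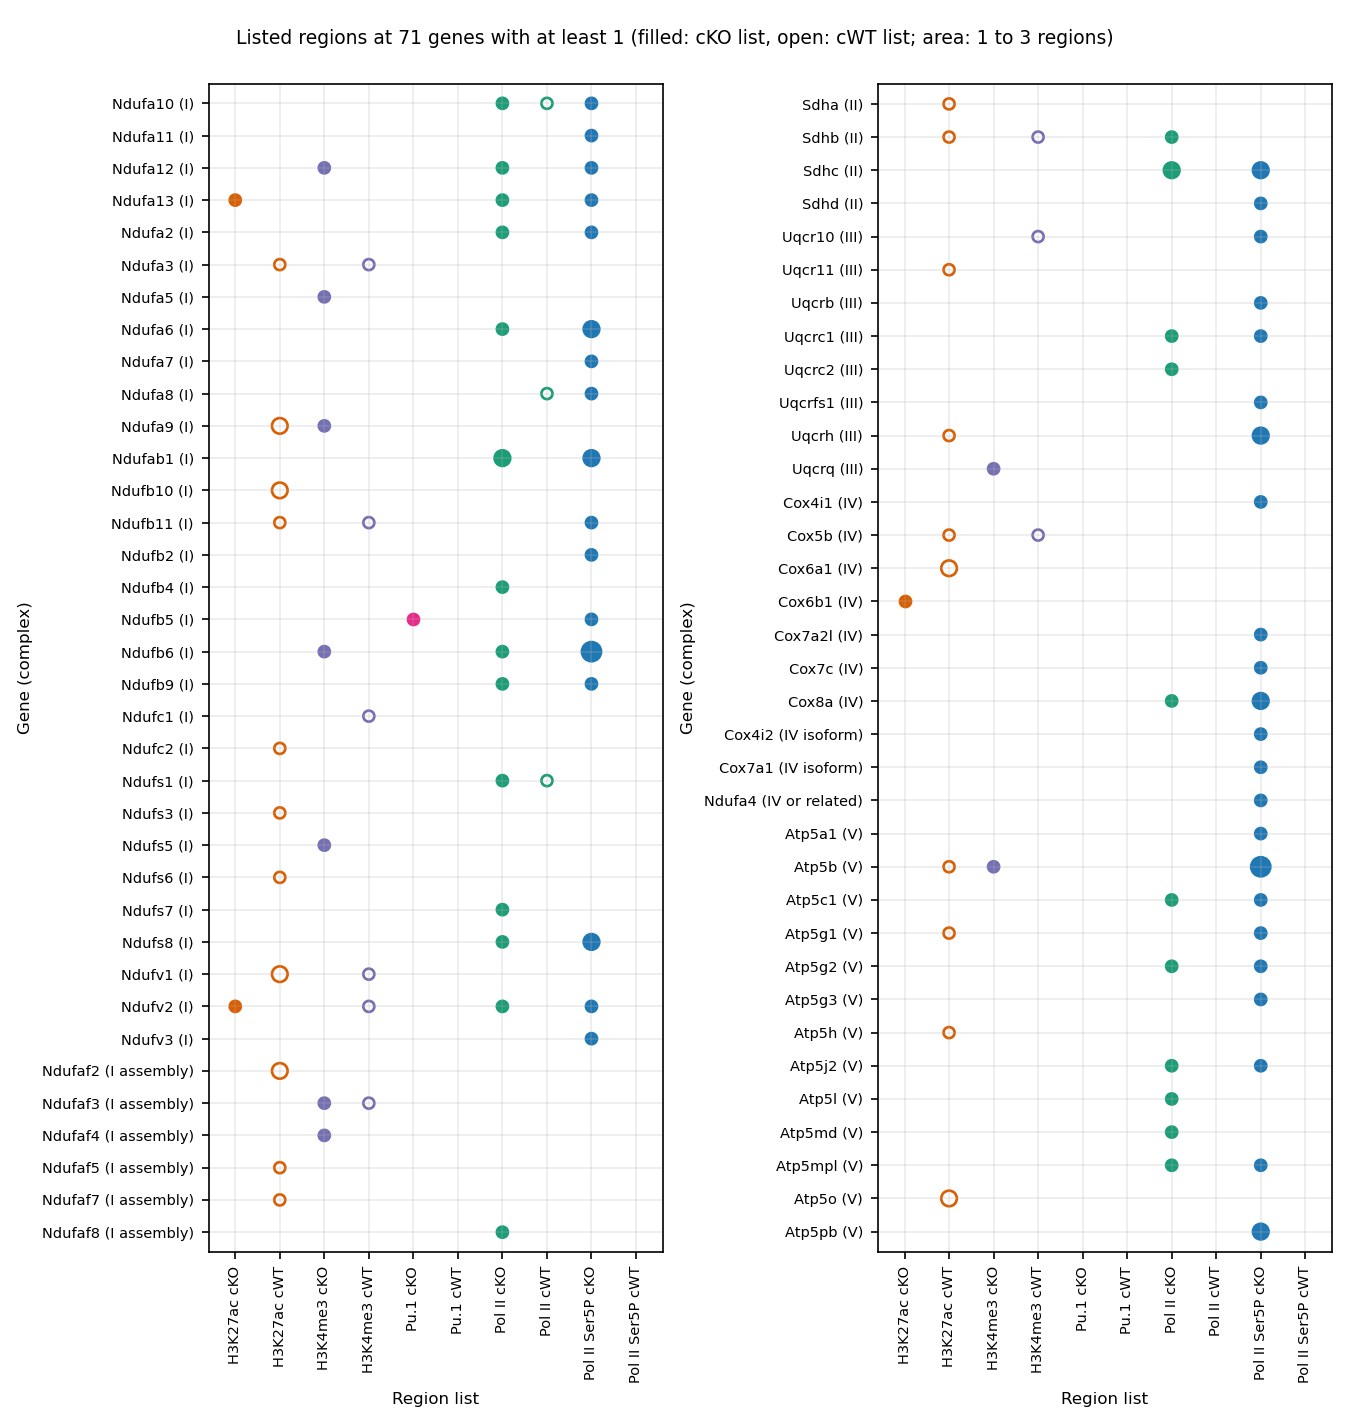
Listed regions at 71 of the 72 genes with at least 1 (y axis, complex in brackets) in each of the 10 lists (x axis), filled for cKO and open for cWT lists, with the area of each point for 1 to 3 regions. The Ser5P cKO column is the fullest, and 42 of the genes have regions of 1 antibody only.

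The lists held no region for 24 genes. Beside those already named these were Ndufa1, Ndufb1, Ndufb3, Ndufb4b, Ndufb4c, Ndufb7, Ndufb8 and Ndufs4 of complex I, the assembly factors Ndufaf1 and Ndufaf6, Cox5a, Cox6c, Cox7a2 and Cox7b of complex IV, and Atp5j and Atp5k of complex V. Absence from these lists says nothing of whether a gene was marked alike in both genotypes or not marked at all. Ndufb4, which did have a Pol II region of the cKO list, has near copies in Ndufb4b and Ndufb4c, and 19 pseudogenes have symbols of the same families. How reads with several matches were handled is not stated, so listing at genes with such copies is uncertain.

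Pol II and Ser5P of the cKO lists shared 17 genes, 68% of the Pol II genes and 41.5% of the Ser5P genes, and at 15 of the 17 the regions overlapped. The exceptions were Ndufa13 and Ndufv2. Among all genes with Pol II of the cKO list, 65.4% had Ser5P too, so the overlap was near that of genes in general. H3K27ac of the cWT list and Ser5P of the cKO list shared 5 genes, among them Atp5b, Atp5g1, Ndufb11 and Uqcrh, 22.7% of the H3K27ac genes and 12.2% of the Ser5P genes. Of all genes with H3K27ac of the cWT list, 42.6% had Ser5P of the cKO list. With Pol II of the cKO list the shared gene was Sdhb, 4.55% of the H3K27ac genes and 4% of the Pol II genes, beside 36.3% of all genes with H3K27ac of the cWT list. Altogether 43 genes had a cKO polymerase region without cWT H3K27ac (44.8%, against 16.9% of all genes), 16 had cWT H3K27ac without cKO polymerase (16.7%, against 8.42%), and 6 had both (6.25%, against 9.9%). Joint listing was the 1 class of the 3 in which the set's share stood below that of all genes, and no test bears on that difference. H3K4me3 of the cKO list shared Atp5b, Ndufa12 and Ndufb6 with Ser5P, 33.3% of its 9 genes and 7.32% of the Ser5P genes, beside 37.1% of all genes with H3K4me3 of the cKO list. H3K4me3 of the cWT list shared 5 of its 9 genes with H3K27ac of the cWT list, 55.6% of the former and 22.7% of the latter, beside 39% of all genes with H3K4me3 of the cWT list. They were Cox5b, Ndufa3, Ndufb11, Ndufv1 and Sdhb, with overlapping regions at all of these except Sdhb.

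Because longer genes can collect several regions along their span, the pairs of polymerase and H3K27ac lists were also counted within 2 kb of gene starts, or of either gene end for genes without a start in the RefSeq table. There Pol II and Ser5P shared 14 of 22 genes (63.6%), beside 60.8%. H3K27ac of the cWT list shared 3 of 17 genes with Ser5P (17.6%), beside 31.7%, and 0 of 17 with Pol II, beside 26.1%. Near starts the set's share of H3K27ac genes with polymerase was again below that of all genes, on counts of few genes.

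Listed regions kept close to the gene start. A region lay within 2 kb of a start at 69 genes (71.9%), against 32% of all genes. In these counts either gene end stood in for the start at genes without a known one, 18 of them in the set. For Ser5P of the cKO list this held at 39 (40.6%, beside 16.4%), for Pol II of the cKO list at 22 (22.9%, beside 11.9%) and for H3K27ac of the cWT list at 17 (17.7%, beside 9.9%). For H3K4me3 it held at 8 genes in the cKO list (8.33%, beside 5.36%) and 9 in the cWT list (9.38%, beside 3.37%). With the start known for 78 genes, 84 of their 112 regions (75%) lay within 500 bp of it, while 50.1% of regions at all genes did. Genes of the set were shorter (median span 7228 bp against 17169 bp), so more of their window lies near the start by construction. No comparison with genes of like span was made, here or by list. By list this share was 78.6% for Ser5P of the cKO list (57.3% for all genes), 75% for Pol II of the cKO list (55.6%) and 59.3% for H3K27ac of the cWT list (31.6%). Of the 84 regions near a start, 47 lay over it and 60 had their midpoint downstream of it. The regions were 174 to 1632 bp wide with a median of 371 bp, close to the 379 bp of all listed regions.

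**Figure D4:**
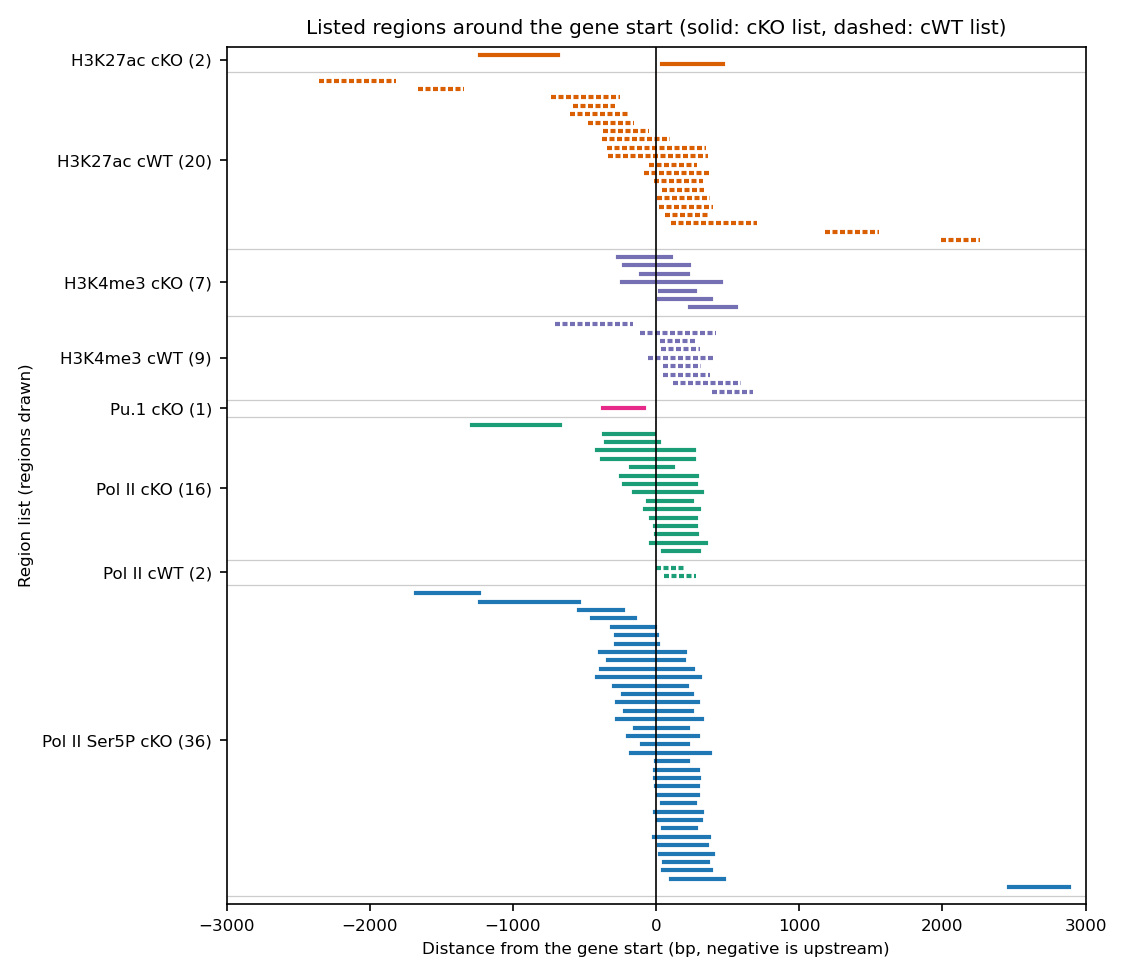
Each line is 1 listed region by distance from the gene start in bp (x axis, negative is upstream), grouped by list (y axis, number drawn in brackets), solid for cKO and dashed for cWT lists. The 93 of 112 regions within 3000 bp are drawn, and most gather at the start and just downstream of it.

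At a few genes, regions of opposite genotypes sat side by side. At the Ndufa10 start, an accessory subunit, the Pol II region of the cWT list (chr1:92473558-92473761) and that of the cKO list (chr1:92473741-92474111) overlapped by 21 bp, and a Ser5P region of the cKO list (chr1:92473505-92473988) lay across both. At Ndufs1, the largest iron-sulfur subunit of complex I, the Pol II regions of the cKO list (chr1:63176353-63176756) and the cWT list (chr1:63176761-63177057) stood 4 bp apart. The Ndufa8 region of the cWT Pol II list (chr2:36049058-36049280) lay inside a Ser5P region of the cKO list (chr2:36048943-36049313). At these 3 genes and Ndufaf3 the lists therefore name adjoining or overlapping DNA for opposite genotypes. Another 8 pairs of regions of 1 list abutted with no base between them and carried the same deposited signal, as at Ndufv1 and Ndufa6, so the number of regions at a gene is not a measure of separate sites.

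The deposited p-values were high throughout. Of the 135 regions, 3 had a deposited p below 0.05, those at Cox7c, Ndufb6 and Ndufa13 given above. Among these 135 regions the lowest adjusted value in the authors' deposited table was 0.474. Over all lists of the authors' deposited table, 169 regions had a p below 0.05 and 18 an adjusted value below 0.05. By their p, the Pol II regions of the cKO list stood in the upper part of it (a median place at 24.9% of the way down), the H3K4me3 regions lower (65.5% for the cKO list and 65.6% for the cWT list). At the edge of the 2 kb window, the farthest regions counted were at Uqcrh (H3K27ac cWT, 1813 bp from the span) and Ndufb6 (Pol II cKO, 1737 bp). The nearest left out were at Atp5b (H3K27ac cWT, 2484 bp) and Atp5mpl (Pol II cKO, 2774 bp).

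The promoters were then searched for the letters of known factor sites in the 300 bases from 250 before to 50 after the RefSeq start, on both strands, for 78 genes of the set and 17492 genes in all. The NRF1 letters GCATGCGC occurred at 12 genes (15.4%), against 3.94% of all genes, and the YY1 letters AAGATGGC at 11 (14.1%), against 3.57%. The ETS core CCGGAAG, read by GABP among others, occurred at 19 (24.4%), against 12.9%. The PU.1 letters GAGGAAGT occurred at 3 genes (3.85%), near the 3.64% of all genes. Sp1 letters (GGGGCGGGG, 15.4% against 17.3%), the GC box core within them (GGGCGG, 44.9% against 49.2%) and TATAAA (10.3% against 14.8%) were less frequent than in all genes. Between the 38 genes with a cKO polymerase region and the 40 without, the counts were 7 and 5 for NRF1, 9 and 10 for the ETS core, 4 and 7 for YY1, 8 and 4 for Sp1 and 0 and 3 for PU.1. A match describes letters and not binding. Median GC content was 58.4% for the set and 56.3% for all genes.

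**Figure D5:**
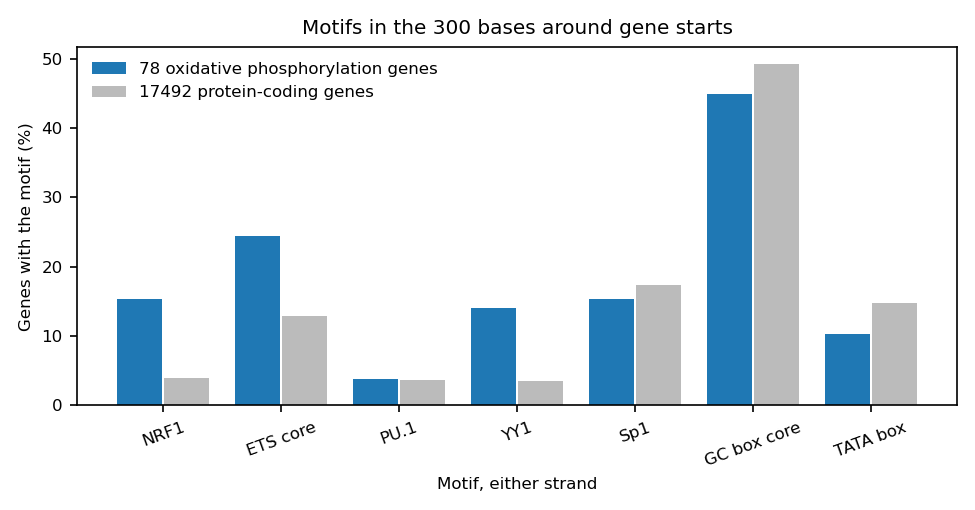
Percentage of genes (y axis) whose 300 bases around the start hold each motif on either strand (x axis), for 78 oxidative phosphorylation genes in blue and 17492 genes in grey. The blue bars are the taller for NRF1 (15.4% and 3.94%), YY1 and the ETS core.

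Cytosolic ribosomal protein genes (median span 3175 bp) and proteasome genes (11567 bp), both expressed in nearly all cells, gave shares of the same size for the polymerase lists. Of 91 cytosolic ribosomal protein genes, 45 (49.5%) had Ser5P of the cKO list, 27 (29.7%) Pol II of the cKO list and 19 (20.9%) H3K27ac of the cWT list. Of 51 proteasome genes, 20 (39.2%), 12 (23.5%) and 16 (31.4%) did. The H3K4me3 list of the cWT reached 4 ribosomal genes (4.4%) and 5 proteasome genes (9.8%), beside 9.38% of the oxidative phosphorylation genes. No test of a difference between the families was made.

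Genes of the wider respiratory pathway were counted in the same way. Among 21 other respiratory chain genes 13 had a region, 7 of them Ser5P of the cKO list and 5 H3K27ac of the cWT list. Coq2, an enzyme of coenzyme Q synthesis, had regions of all 5 antibodies, and Atpif1, the inhibitor of ATP synthase, had 3 H3K27ac regions in the cWT list. Of 40 assembly factors for the respiratory complexes 26 had a region and 14 had Ser5P of the cKO list, among them Ecsit, Tmem126b, Uqcc2 and Cox11. Of 22 regulators of respiratory genes and mitochondrial DNA 13 had a region, with 8 for Ser5P of the cKO list. Gabpb1, a subunit of GABP, had 4 antibodies, Nrf1 had H3K27ac of the cWT list with Pol II and Ser5P of the cKO lists, and Esrra, a nuclear receptor, had H3K27ac and H3K4me3 of the cWT lists. Of 24 genes of the citrate cycle and pyruvate dehydrogenase 13 had a region, 7 each for Pol II and Ser5P of the cKO lists. Pdk3, a kinase that restrains pyruvate dehydrogenase, had 4 antibodies and Suclg2, a subunit of succinyl-CoA ligase, 3. The shares with a region of any list, from 54.2 to 65%, lay between the 40.2% of all genes and the 75% of the oxidative phosphorylation genes. Shares for Ser5P of the cKO list ran from 29.2 to 36.4%, beside 21.1% of all genes. For Pol II of the cKO list they ran from 13.6 to 29.2%, beside 16.4%. For H3K27ac of the cWT list they ran from 12.5% (assembly factors) to 23.8%, beside 18.3%. Median spans were 10549.5 to 26855.5 bp, longer than the 7228 bp of the set.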

How the data were processed

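CUT&Tag libraries of 5 antibodies and 2 genotypes were described by the labels as 30 samples, and the groups were taken from the sample titles. The files analysed were 10 deposited lists of regions, 1 for each antibody and genotype, without values for single replicates. Per the submitters' processing notes, the tools were HOMER 4.11, Bowtie2 2.4.4, bedtools 2.30.0 and MACS2 2.2.7.1, on mm10 (GRCm38). What each did, and how a region became specific to a genotype, is not stated there. Each line of the lists, as the authors deposited them, holds a position, a name, a score from 1 to 1000, a signal on a scale that is not stated, a p-value and its q-value (the p-value after adjustment). The score column was not used in any deposited list, the deposited signal was compared only between abutting regions of 1 list, and the deposited p-value only ranked regions within a list (list medians 0.724 to 0.862).

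Genes were the 21887 nuclear protein-coding genes of the RefSeq table of mm10, and the set was chosen by symbol. A gene counted for a list where at least 1 base of a region overlapped its span plus 2 kb, with positions counted from 1. Gene starts and promoter sequences came from a RefSeq table (GRCm38.p6) that held 78 of the 96 genes and 17492 genes in all. Exons and introns were not annotated, and mitochondrial genes were left out of the counts. Members, gene lists, markers, motifs and the rule for named genes were chosen with earlier results of these data known. That rule named every gene with regions of at least 2 antibodies, up to 4 genes for each complex and list by most regions and then lowest p, and up to 5 of each pathway list by most antibodies and then regions. Other genes, including those of the printed sequences, were named after their values were seen. All 150 symbols of the fixed lists and markers matched the table. Counts are set beside the share of all genes with no test, since no list holds values for single replicates. The overlap code was tested on simulated data and against bedtools 2.31.1. Calculations used Python 3.11.15, numpy 2.4.6 and pandas 2.3.3, and figures matplotlib 3.10.9. The alternatives changed the window (no extension, 5 kb, or 2 kb around starts, with either gene end used where no start was known). Others left out regions at another gene, regions under 300 bp, regions with a p in the higher part of each list, or the assembly factors. Results for 1 gene of the set are not reported here, although it is included in the counts.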

Additional observations from a re-analysis of the deposited data

How the results depend on the processing

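Across 7 alternatives, 59 of 77 counts of genes with a listed region stayed within 1.5 times the reported count and 18 did not. With a 5 kb extension, within 2 kb of gene starts, or without the assembly factors, no count moved that far. Leaving out regions that also lay at another gene keeps fewer regions by construction. It gave 39 genes for any list (beside 29.7% of all genes), 18 for Pol II Ser5P cKO (14.9%) and 14 for Pol II cKO (11.6%). There were 14 for H3K27ac cWT (14.5%), 5 for H3K4me3 cWT (2.77%) and 4 for H3K4me3 cKO (4.2%). The setting left 1 for H3K27ac cKO (2.34%), 1 for Pol II cWT (1.03%) and 0 for Pu.1 cKO (2.36%). The gene span without extension gave 1 gene for H3K27ac cKO (beside 2.58% of all genes) and 0 for Pu.1 cKO (2.6%). Regions of at least 300 bp gave 5 for H3K4me3 cWT (beside 2.95%), 0 for Pol II cWT (0.868%) and 0 for Pu.1 cKO (1.59%). The regions with the lower p of each list gave 13 for H3K27ac cWT (beside 11.9%) and 4 for H3K4me3 cKO (3.15%). They gave 3 for H3K4me3 cWT (1.99%) and 1 for Pu.1 cKO (1.64%). The last 3 settings also keep fewer regions or bases by construction, and no other cause was tested. No paired analysis was possible because the lists hold no values for single replicates, and leaving out each replicate could not be run for the same reason. Read depth is unknown, so whether a gene missing from the lists could have been detected cannot be judged.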

Other observations

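Mitochondrial DNA, which encodes a few core subunits of complexes I, III, IV and V, carried 7 listed regions, 6 of them in cKO lists. Most of the 22399 listed regions were in cKO lists too. Those of Ser5P and Pol II held 6163 and 4647 regions, against 394 in the Pol II list of the cWT. For H3K27ac the cWT list was the longer (6995 against 847). No test was made of the split of the mitochondrial regions. Over the start of ND1, a core subunit of complex I, and the neighbouring TrnL1 lay a Pol II Ser5P region (2724 to 3442 of the mitochondrial chromosome) and an H3K4me3 region (2748 to 3459), both of cKO lists. A Pol II region of the cKO list began at the far end of these (3438 to 3768, ND1 and TrnI), and another lay in COX1 (6102 to 6419), which encodes a catalytic subunit of complex IV. The region of a cWT list was of H3K27ac, in ND5 (12479 to 12890). By deposited p-value all of these ranked in the lower part of their lists. The ND1 Ser5P region was number 3404 of 6163 and the ND1 H3K4me3 region number 1034 of 1331. The Pol II regions were numbers 4369 and 4639 of 4647, and the ND5 region was number 5903 of 6995. The remaining regions overlapped each other and no annotated gene. They were of H3K27ac cKO (15571 to 16094, number 18 of 847 by deposited p-value) and H3K4me3 cKO (15614 to 16070, number 21 of 1331). How reads from mitochondrial DNA were handled is not stated in the labels. Whether polymerase II or marked histones were present on mitochondrial DNA was not tested, and a listed region there does not show it.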
